A study of Mus musculus with 9 samples.

Results

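The genes described here are 44 genes of DNA replication and mitosis: 25 replication genes and 19 mitosis genes. The list rests on the genes' known roles and was chosen with earlier results of these data known. The rule took the probe sets (a probe set is the group of array probes that reads 1 gene) whose platform symbol is one of these names. It found 42 of the 44, with 1 probe set each, among 20405 named genes: 24 replication genes and 18 mitosis genes. Pcna and Ccnb1 matched no named probe set and are not analysed here.

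RNA was measured on 9 Affymetrix mouse gene arrays, from cells of the aorta-gonad-mesonephros region (AGM) of C57Bl6 embryos at stage E11.5. Cells were sorted on CD144, the endothelial adhesion protein VE-cadherin, and on CD45, a surface phosphatase of blood cells. The groups are CD144+CD45+ cells, which the submitters call hematopoietic stem/progenitor cells (HSPC), CD144-CD45+ hematopoietic cells (HC) and CD144+CD45- endothelial cells (EC), with 3 arrays each. All 3 groups are unmanipulated cells of 1 strain, region and age, and the labels describe no treatment or mutation. Each array holds the RNA of a whole sorted gate. Fewer cycling cells and less RNA per cycling cell cannot be told apart. The labels give no pools, litters or sorting days, so the spread between the arrays of a group may be technical. Values are log2 expression, where 1 unit is a 2-fold change. All 8 endothelial markers were lower in HC than in EC and all 7 pan-leukocyte markers were higher in HC and in HSPC than in EC, at an adjusted p under 0.05 (limma, Benjamini-Hochberg over 20405 genes). The gates that share a sort marker also differed: 5 of 8 endothelial markers were lower in HSPC than in EC (median -1.42), and 6 of 7 pan-leukocyte markers were lower in HSPC than in HC (median -0.92). Cdh5, which encodes CD144, averaged 10.47 ± 0.68 in HSPC, 5.79 ± 0.65 in HC and 11.70 ± 0.14 in EC (SD, n = 3). Ptprc, which encodes CD45, averaged 8.90 ± 0.26 in HSPC, 9.95 ± 0.10 in HC and 4.42 ± 0.07 in EC. Cdh5 itself was called lower in HC than in EC and higher in HSPC than in HC, while its difference between HSPC and EC did not pass (-1.23 ± 0.37 SE, adjusted p = 0.0574). The EC mean of Ptprc lay under 4.64, the level taken as background.

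A cell that divides first licenses its replication origins. The origin recognition complex, Cdc6 and Cdt1 load the ring-shaped Mcm2-7 helicase, and geminin (Gmnn) blocks a second loading by binding Cdt1. Cdc45 and the GINS complex then turn the loaded ring into a running helicase, and the DNA polymerases copy both strands. In mitosis, cyclins with Cdk1 and the Aurora and Polo kinases drive chromosome condensation and spindle assembly, kinesins move chromosomes, and the Bub1, Bub1b and Ttk proteins hold the cell until every chromosome is attached. Genes of replication are classically activated by E2F factors before S phase. Genes of mitosis are classically activated later, through the CHR element and the CCAAT box. In the AGM of this stage, blood stem and progenitor cells arise from the endothelium of the dorsal aorta.

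The promoters of 6 of the genes are printed to show where letters of the E2F, CHR and CCAAT elements lie before and around the start. They are the 3 replication genes and the 3 mitosis genes with the largest differences past the threshold in any of the comparisons described further on, among genes with a promoter in the RefSeq table (GRCm38.p6). That table held a promoter for 19 of the 24 replication genes and 14 of the 18 mitosis genes, each running from 250 bases before the annotated start to 50 after it, and the first listed start was taken. The motifs searched, on both strands, were TTTCGCGC and TTTGGCGC (forms of the E2F site), TTTGAA (a form of the CHR element) and CCAAT. Capitals mark every match. Mcm10 lies at chr2:5012742-5013041, Fen1 at chr19:10204344-10204643 and Mcm7 at chr5:138171834-138172133, all on the minus strand. Aurka lies at chr2:172370521-172370820 on the minus strand, Ttk at chr9:83834439-83834738 and Kif11 at chr19:37376132-37376431 on the plus strand. Each sequence reads 5′ to 3′ along the gene.
Mcm10: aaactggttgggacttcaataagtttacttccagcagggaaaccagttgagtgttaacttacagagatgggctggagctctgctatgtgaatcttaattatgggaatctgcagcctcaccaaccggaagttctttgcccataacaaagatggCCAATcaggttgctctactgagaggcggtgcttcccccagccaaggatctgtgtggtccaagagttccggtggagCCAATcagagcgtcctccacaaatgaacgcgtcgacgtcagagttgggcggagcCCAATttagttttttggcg
Fen1: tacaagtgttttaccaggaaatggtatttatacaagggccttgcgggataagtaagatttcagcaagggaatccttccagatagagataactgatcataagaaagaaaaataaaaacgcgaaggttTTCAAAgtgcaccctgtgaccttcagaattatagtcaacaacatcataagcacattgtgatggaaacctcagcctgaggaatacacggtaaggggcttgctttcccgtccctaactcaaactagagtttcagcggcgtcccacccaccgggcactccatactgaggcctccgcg
Mcm7: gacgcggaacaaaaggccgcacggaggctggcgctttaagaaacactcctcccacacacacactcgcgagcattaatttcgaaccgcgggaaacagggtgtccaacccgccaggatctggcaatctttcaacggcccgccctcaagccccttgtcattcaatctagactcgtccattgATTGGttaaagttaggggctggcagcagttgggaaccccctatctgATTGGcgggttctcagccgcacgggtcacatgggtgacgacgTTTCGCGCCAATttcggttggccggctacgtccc
Aurka: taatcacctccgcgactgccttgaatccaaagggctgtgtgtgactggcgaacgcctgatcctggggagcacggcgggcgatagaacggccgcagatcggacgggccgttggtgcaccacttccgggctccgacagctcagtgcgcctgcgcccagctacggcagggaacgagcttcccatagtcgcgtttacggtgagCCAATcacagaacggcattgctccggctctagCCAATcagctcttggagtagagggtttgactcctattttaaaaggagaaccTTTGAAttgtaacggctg
Ttk: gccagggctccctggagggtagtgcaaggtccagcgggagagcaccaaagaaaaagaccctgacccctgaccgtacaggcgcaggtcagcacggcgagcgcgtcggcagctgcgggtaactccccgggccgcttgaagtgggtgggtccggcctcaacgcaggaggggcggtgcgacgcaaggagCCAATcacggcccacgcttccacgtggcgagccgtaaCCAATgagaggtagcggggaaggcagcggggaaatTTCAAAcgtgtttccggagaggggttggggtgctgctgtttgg
Kif11: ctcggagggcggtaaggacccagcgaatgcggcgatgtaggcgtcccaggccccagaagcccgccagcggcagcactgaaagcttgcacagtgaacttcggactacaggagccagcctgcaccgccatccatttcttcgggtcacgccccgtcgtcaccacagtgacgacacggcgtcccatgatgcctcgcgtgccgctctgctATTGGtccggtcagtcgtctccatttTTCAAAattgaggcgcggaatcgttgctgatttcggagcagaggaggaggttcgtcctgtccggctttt

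Mcm7 held 1 E2F form, which shares a base with 1 of its 3 CCAAT matches. Mcm10 held 3 CCAAT matches and neither whole E2F form, and Fen1 a single TTTGAA. The Mcm10 sequence stops 1 letter short of the form TTTGGCGC at the end of the window, so a match there could not be read. Aurka and Ttk each held 1 TTTGAA and 2 CCAAT, and Kif11 held 1 of each. Across the replication genes, 8 of 19 promoters (42.1%) held an E2F form, against 0.833% of the 27025 genes of the table. Among the 15803 measured genes of the table the share was 1.16%. The 8 replication genes were Mcm3, Mcm5, Mcm6, Mcm7, Cdt1, Orc1, Pola1 and Rfc3. Among the mitosis genes 1 of 14 held one, that of Cdk1. TTTGAA and CCAAT stood together in 11 of the 14 mitosis promoters (78.6%), against 3 of the 19 replication promoters (15.8%). The pair stood in 7.12% of all genes of the table and 6.22% of its measured genes. The mitosis promoters without the pair were those of Bub1, Birc5 and Cenpe. CCAAT is common, at 37.9% of all genes of the table (38.4% of its measured genes). TTTGAA stood in 18.1% (15.3%), each counted whether or not the other was there. A match describes the letters and is no evidence that a factor binds there.

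As a set, the replication genes stood higher in both CD45+ groups than in EC, by a small amount. Averaged over the 24 genes, the level was 8.30 ± 0.017 in HSPC, 8.33 ± 0.045 in HC and 8.02 ± 0.047 in EC (SD, n = 3). Every HSPC and HC array lay above every EC array, and the HSPC and HC arrays overlapped. The set mean was 0.28 higher in HSPC than in EC and 0.32 higher in HC than in EC, and HSPC differed from HC by -0.037. Averaged over the 18 mitosis genes, the level was 9.04, 9.09 and 9.03 in HSPC, 9.07, 9.10 and 9.16 in HC and 8.93, 8.98 and 8.95 in EC. The order of the groups was that of the replication set. The gaps to EC were smaller, 0.095 for HSPC and 0.15 for HC, and HSPC differed from HC by -0.056. These means describe the lists and carry no test, since genes are not replicates. After centring each array on its median, the median difference between HSPC and EC was 0.23 for the replication genes and 0.036 for the mitosis genes. That of all genes was then -0.056. Before centring the 3 medians were 0.30, 0.10 and 0.0094 in the same order.

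**Figure D1:**
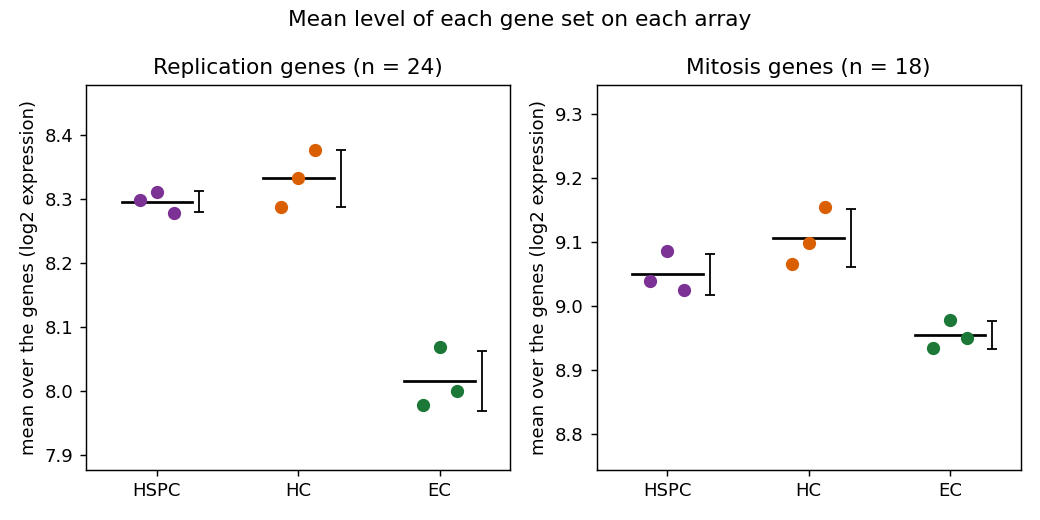
Mean log2 expression of the 24 replication genes (left) and the 18 mitosis genes (right) on each array. Points are arrays, horizontal bars group means and the bracket beside each group its SD (n = 3); both axes span the same number of log2 units. The EC arrays lie lowest in both panels, and the gap is wider for the replication genes.

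HSPC against EC compares CD144+ cells with and without CD45, the gates that the submitters call stem/progenitor and endothelial cells. All 6 blood stem and progenitor markers were called higher in HSPC than in EC (median 3.92). So were all 7 macrophage markers (median 4.23), so the gate is not stem and progenitor cells alone by its markers. In limma's test, 9 of 24 replication genes passed the threshold as higher (37.5%), against 8.55% of all genes, and 0 passed as lower, against 7.94% of all genes. Of all calls over the 20405 genes 51.8% were higher in HSPC, and 41.3% after median centring. At an unadjusted p under 0.05, 12 replication genes were higher and 0 lower, where 14.2% of all genes were higher and 12.3% lower. Their median difference was 0.30, where that of all genes was 0.0094. The setting without dim probe sets kept the 13089 genes with a mean above the background level. There 10 of the 24 were called higher (41.7%), against 14.0% of the genes kept. No member reached 2-fold in any comparison with all arrays, though Aurkb passed it between HC and EC without HC replicate 2 (2.04-fold) or EC replicate 3 (2.06-fold), while 5.98% of all genes were called with at least a 2-fold difference between HSPC and EC.

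Of the 9 genes, 7 encode helicase subunits or factors that start it: Mcm2, Mcm5, Mcm6, Mcm7, Mcm10, Cdc45 and Gins2. Mcm10, which stabilises the helicase at the start of replication, read 7.57, 7.82 and 7.70 on the HSPC arrays, 7.92, 7.74 and 7.99 on the HC arrays and 6.77, 7.15 and 7.13 on the EC arrays. Its HSPC arrays all lay above its EC arrays, and the difference was 0.68 ± 0.12 (SE) (adjusted p = 0.00459). Mcm7, a subunit of the Mcm2-7 ring, read 8.80, 8.90 and 9.07 on the HSPC arrays, 8.74, 8.83 and 8.94 on the HC arrays and 8.22, 8.44 and 8.35 on the EC arrays. The HSPC arrays again did not overlap the EC arrays, with a difference of 0.59 ± 0.095 (SE) (adjusted p = 0.00291). Mcm5, another ring subunit, followed at 0.43 ± 0.082 (SE) (adjusted p = 0.00649). These 3 calls held in all 15 alternative settings. The other ring subunits were nearer the threshold or short of it: Mcm2 was 0.31 higher (adjusted p = 0.0412) and Mcm6 0.24 (adjusted p = 0.0304), while Mcm4 had a difference of 0.16 and Mcm3 of 0.044, neither called. Mcm2, often stained to find cells licensed to divide, read 9.05, 9.02 and 9.25 on the HSPC arrays, 8.96, 8.94 and 9.16 on the HC arrays and 8.80, 8.78 and 8.81 on the EC arrays. Its EC arrays were the tightest of the groups and lay below all others.

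Behind the helicase, Gins2, a GINS subunit, was 0.37 higher in HSPC (adjusted p = 0.0443) and Cdc45, which joins it, 0.29 (adjusted p = 0.0372). Of the polymerases, Pole, the catalytic subunit of the leading-strand enzyme, was 0.36 higher (adjusted p = 0.0201) and Pola1, which extends the primers, 0.35 (adjusted p = 0.0231). These calls and those of Mcm2 and Mcm6 were all lost after median centring (adjusted p 0.067 to 0.108) and when only the 6 arrays of HSPC and EC were fitted (0.0505 to 0.109). Leaving out single arrays also ended them. An HC array does not enter these differences, and leaving it out changes only the shared estimate of the spread and with it the adjusted p. Pole was lost without EC replicate 2 or 3 (adjusted p 0.0586 to 0.0706), and Pola1 without those or HSPC replicate 1 (0.0639 to 0.0718). Mcm6 was lost without any EC array or HSPC replicate 1 or 3 (0.0597 to 0.0935). Mcm2 was lost without any array except HC replicate 3 (0.0522 to 0.131). Gins2 was lost without any array except HSPC replicate 1 (0.0664 to 0.141). Cdc45 was lost without HSPC replicate 2 or 3, HC replicate 1 or 2, or EC replicate 1 or 2 (0.0506 to 0.127). The count of 9 became 4 without EC replicate 3 and 5 without EC replicate 1 or 2.

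Licensing regulators did not pass. Cdt1, the loader that marks cells before S phase, read 7.87, 8.65 and 8.49 on the HSPC arrays, 8.46, 8.35 and 8.52 on the HC arrays and 8.02, 7.86 and 8.02 on the EC arrays. HSPC replicate 1 lay below 2 of the 3 EC arrays and the other HSPC arrays above all of them, so the groups overlapped, with a difference of 0.37 ± 0.18 (SE) and a 95% interval of -0.03 to 0.77 (adjusted p = 0.229). The value rested on single arrays: without HSPC replicate 1 it was 0.61 and called (adjusted p = 0.00257), and without HSPC replicate 2 it was 0.22 (adjusted p = 0.557). Gmnn, its inhibitor, read 7.51, 7.57 and 7.45 on the HSPC arrays, 7.24, 7.62 and 7.45 on the HC arrays and 7.28, 7.45 and 6.92 on the EC arrays. EC replicate 3 was low and EC replicate 2 level with the lowest HSPC array, and the difference was 0.29 ± 0.14 (SE) (adjusted p = 0.241), or 0.14 without EC replicate 3 (adjusted p = 0.577).

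Of 18 mitosis genes, 2 were higher in HSPC than in EC (11.1%, beside the 8.55% of all genes) and 0 lower (against 7.94%). At an unadjusted p under 0.05, 4 were higher and 0 lower (limma), where 14.2% of all genes were higher and 12.3% lower. Without dim probe sets the count stayed at 2 (11.1%), below the 14.0% of the genes kept. The median difference of the 18 genes was 0.10. Aurkb, the kinase of the chromosomal passenger complex that corrects spindle attachments, read 9.03, 9.26 and 9.30 on the HSPC arrays, 9.60, 9.42 and 9.68 on the HC arrays and 8.48, 8.57 and 8.79 on the EC arrays. All HSPC arrays lay above the EC arrays, and the difference was 0.58 ± 0.11 (SE) (adjusted p = 0.00738), and the call held in all 15 alternatives. Bub1b, a checkpoint protein, read 9.24, 9.23 and 9.12 on the HSPC arrays, 9.05, 9.05 and 9.25 on the HC arrays and 8.89, 8.94 and 8.82 on the EC arrays. It was 0.31 higher in HSPC (adjusted p = 0.0248), a call lost without HSPC replicate 1 or 2 or EC replicate 1 or 3 (0.0654 to 0.0835) and after median centring (0.0655). The count of 2 became 1 without HSPC replicate 1 or 2 or EC replicate 1 or 3, and 4 without EC replicate 2.

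Of the usual markers of cycling cells, Mki67, Top2a, Ccna2 and Cdk1 did not pass between HSPC and EC. Mcm2 did (adjusted p = 0.0412), and Pcna and Ccnb1 could not be read. Mki67, which encodes the proliferation antigen Ki-67, read 9.60, 9.67 and 9.49 on the HSPC arrays, 9.72, 9.74 and 9.88 on the HC arrays and 9.39, 9.58 and 9.46 on the EC arrays. The HSPC and EC arrays overlapped, with a difference of 0.11 ± 0.081 (SE) and a 95% interval of -0.074 to 0.29 (adjusted p = 0.484). It was 0.071 without HSPC replicate 2 and 0.069 without EC replicate 1. Top2a, the topoisomerase that untangles chromosomes, read 10.35, 10.11 and 10.04 on the HSPC arrays, 9.94, 10.14 and 10.09 on the HC arrays and 10.11, 10.10 and 9.996 on the EC arrays. HSPC replicate 1 was the highest of the 9 arrays and the rest lay close together, with a difference of 0.099 ± 0.096 (SE) and an interval of -0.12 to 0.32. Without HSPC replicate 1 the difference was 0.0059, without HSPC replicate 3 it was 0.16 and without EC replicate 3 it was 0.064. Ccna2, the cyclin of S phase and early mitosis, had an interval of -0.067 to 0.29, and Cdk1, the kinase of mitotic entry, one of -0.29 to 0.14. In this comparison the 95% interval of all 42 genes lay inside a 2-fold change either way, as it did for 88.7% of all genes.

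**Figure D2:**
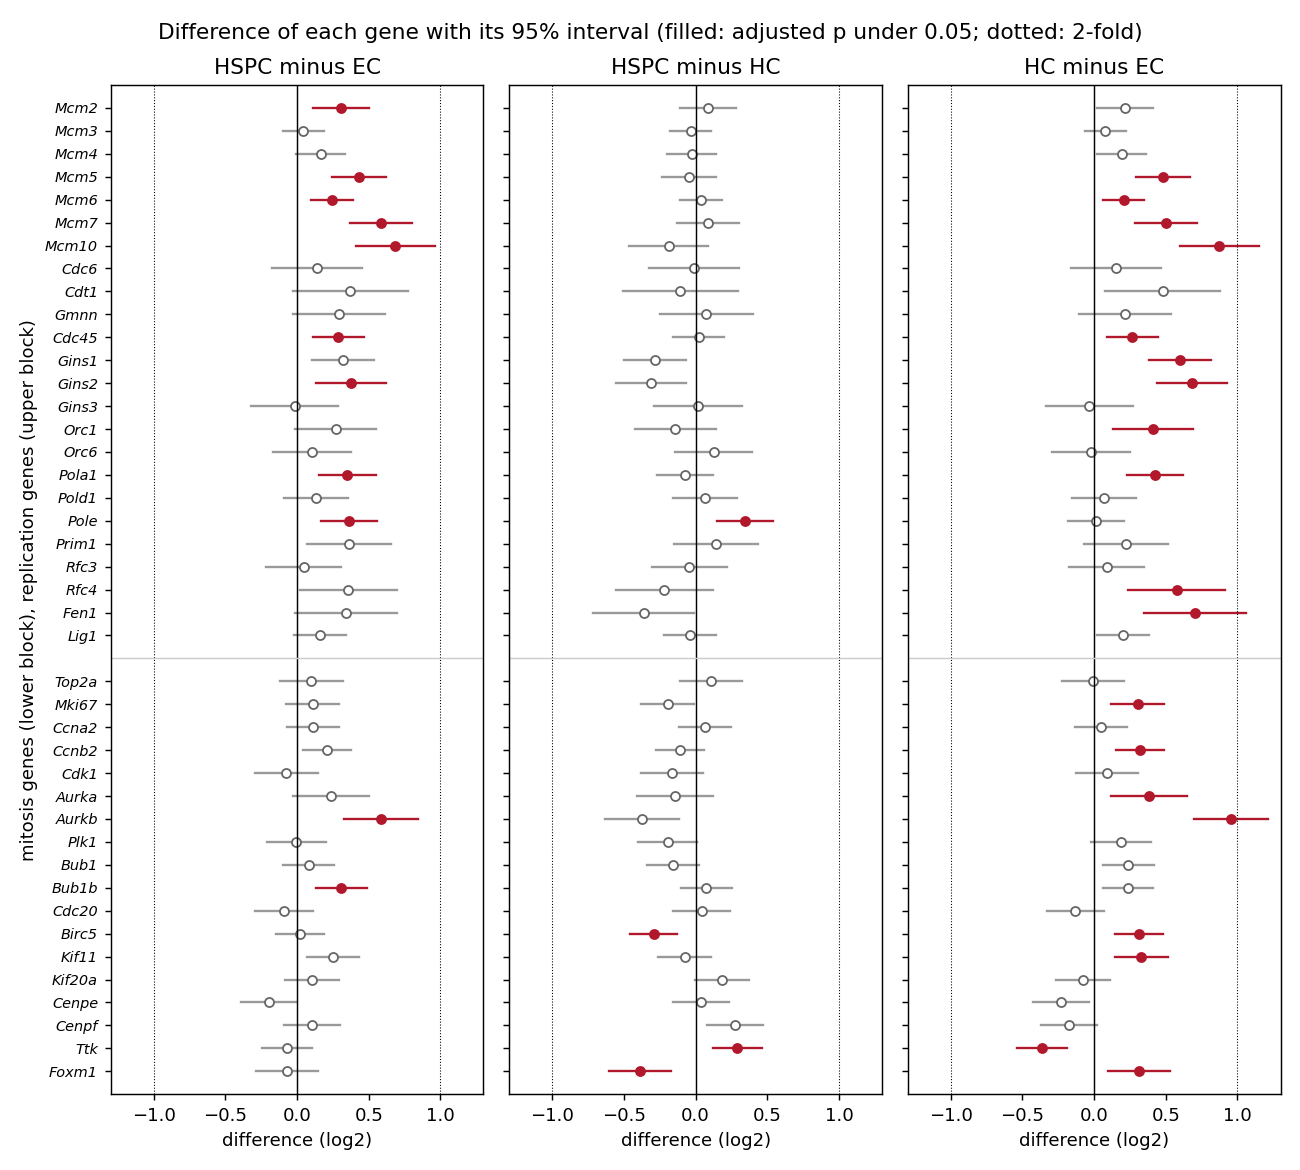
Difference of each of the 42 genes in the 3 comparisons (log2, horizontal axis) with its 95% interval from limma, replication genes in the upper block and mitosis genes in the lower. Filled red points had an adjusted p under 0.05 over all 20405 genes, and dotted lines mark a 2-fold change. Against EC, 23 of 24 replication genes lie to the right of 0 in HSPC and 22 of 24 in HC, while between HSPC and HC 10 do. Of all genes, 52.8% lie to the right of 0 between HSPC and EC, 60.3% between HC and EC and 41.2% between HSPC and HC.

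HC against EC sets the CD144- blood cells against endothelium. This comparison shares the EC arrays with the one before, so the 2 are not independent. Of 24 replication genes, 11 were higher in HC (45.8%), against 14.8% of all genes, and 0 were lower, against 12.6% of all genes. At an unadjusted p under 0.05, 15 were higher and 0 lower (limma), where 20.4% of all genes were higher and 15.7% lower. The median difference was 0.22, where that of all genes was 0.045. Without dim probe sets 10 of the 24 were called higher (41.7%), against 21.7% of the genes kept. Called differences of at least 2-fold made up 10.7% of all genes and, with all arrays, none of the members. After repeated quantile normalization 9 replication genes were called higher (37.5%, against 13.4% of all genes), and after median centring 8 (33.3%, against 13.1%).

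Mcm10 again had the largest difference of the replication genes, 0.87 ± 0.12 (SE) (adjusted p = 0.000559), or 1.83-fold. Fen1, the nuclease that trims Okazaki fragments, read 6.78, 6.78 and 6.36 on the HSPC arrays, 6.72, 7.10 and 7.18 on the HC arrays and 6.20, 6.47 and 6.23 on the EC arrays. All HC arrays lay above all EC arrays, and the difference was 0.70 ± 0.16 (SE) (adjusted p = 0.00825). Its HSPC arrays overlapped those of both other groups, with replicate 3 low. Both GINS subunits called here, Gins2 at 0.68 ± 0.11 (SE) and Gins1 at 0.60 ± 0.095 (SE), were higher in HC than in EC. Between HSPC and EC, Gins1 had a difference of 0.32 (adjusted p = 0.0525). Mcm7 was 0.50 higher, Mcm5 0.48 and Pola1 0.42. The calls of these 7 genes held in all 15 alternatives, with adjusted p of at most 0.0363. Rfc4, a subunit of the clamp loader, was 0.57 higher (adjusted p = 0.0187), a call lost without HC replicate 2 or 3 or EC replicate 1 or 3 (0.0557 to 0.07004). Orc1, an origin recognition subunit (0.41), Cdc45 (0.27) and Mcm6 (0.21) completed the 11, and all 3 calls were lost after median centring and without several single arrays. Orc1 was lost without HC replicate 1 or 2, EC replicate 1 or 3, or HSPC replicate 3 (adjusted p 0.0523 to 0.126). Cdc45 was lost without HC replicate 2 or 3, EC replicate 1 or 2, or HSPC replicate 3 (0.051 to 0.117), and Mcm6 without any HC or EC array or HSPC replicate 3 (0.0598 to 0.108). Both were also lost after repeated quantile normalization (0.0585 and 0.115), and Mcm6 without dim probe sets (0.0544). The count of 11 became 7 without HC replicate 2 or EC replicate 1. Pole, called between HSPC and EC, had a difference of 0.015 between HC and EC with an interval of -0.18 to 0.21. Cdt1 had a difference of 0.48 ± 0.18 (SE) with no overlap between the arrays and did not pass (adjusted p = 0.0805), while without HSPC replicate 1, which enters the estimate of the spread, its adjusted p was 0.0027.

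Of 18 mitosis genes, 7 were higher in HC than in EC (38.9%, against 14.8% of all genes) and 1 was lower (5.56%, against 12.6% of all genes), with a median difference of 0.21. Without dim probe sets these counts stayed at 7 and 1, against 21.7% higher and 19.1% lower among the genes kept. Aurkb had the largest difference of all 42 genes, 0.95 ± 0.11 (SE) (adjusted p = 0.000214), or 1.94-fold (2.04-fold without HC replicate 2 and 2.06-fold without EC replicate 3), and its HC arrays lay above all others. Birc5 encodes survivin, a partner of Aurkb in the passenger complex, and was 0.31 ± 0.073 (SE) higher (adjusted p = 0.0114). The spindle kinesin Kif11 was 0.33 higher and the mitotic cyclin Ccnb2 0.32. Ttk, the checkpoint kinase Mps1, read 7.82, 7.78 and 7.74 on the HSPC arrays, 7.40, 7.47 and 7.59 on the HC arrays and 7.95, 7.82 and 7.77 on the EC arrays. It was the mitosis gene that fell, with all HC arrays below the rest, by 0.36 (adjusted p = 0.00628). These 5 calls held in all 15 alternatives. The other called genes were Aurka, Foxm1 and Mki67. Aurka, the spindle pole kinase, read 8.69, 8.96 and 8.84 on the HSPC arrays, 9.01, 8.95 and 8.96 on the HC arrays and 8.40, 8.84 and 8.54 on the EC arrays. EC replicate 2 lay within the range of the HSPC arrays and the other EC arrays below it, and the difference was 0.38 ± 0.12 (SE) (adjusted p = 0.0397). That call was lost without any HC array, EC replicate 1 or 3 or HSPC replicate 3 (0.0602 to 0.132), after median centring (0.0582), after repeated quantile normalization (0.0863) and with only the 6 arrays compared (0.0556). Foxm1, a transcription factor of mitotic genes, was 0.31 higher (adjusted p = 0.0373), a call lost without any HC or EC array or HSPC replicate 2 (0.0523 to 0.124), after repeated quantile normalization (0.0848) and after median centring (0.0567). Mki67 was 0.30 higher in HC (adjusted p = 0.0208), a call lost without HC replicate 3 or EC replicate 1 or 3 (0.0605 to 0.0776) and after repeated quantile normalization (0.0636). The count of 7 became 4 without HC replicate 3 or EC replicate 3. Repeated quantile normalization gave 4 higher and 2 lower, so that 66.7% of the calls were higher, where the deposited values gave 87.5%.

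The mitosis genes lay on both sides of 0. Besides Ttk, the kinetochore motor gene Cenpe had a difference of -0.23 ± 0.086 (SE) (adjusted p = 0.0811) and the kinetochore gene Cenpf one of -0.17 ± 0.086 (SE) (adjusted p = 0.187), while Top2a stood at -0.0091 (0.048 without HC replicate 1, 0.011 without EC replicate 1), Ccna2 at 0.046 and Cdk1 at 0.09. The interval of 39 of the 42 genes lay inside a 2-fold change. Those of Mcm10, Fen1 and Aurkb reached past it, with upper bounds of 1.15, 1.06 and 1.21.

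**Figure D3:**
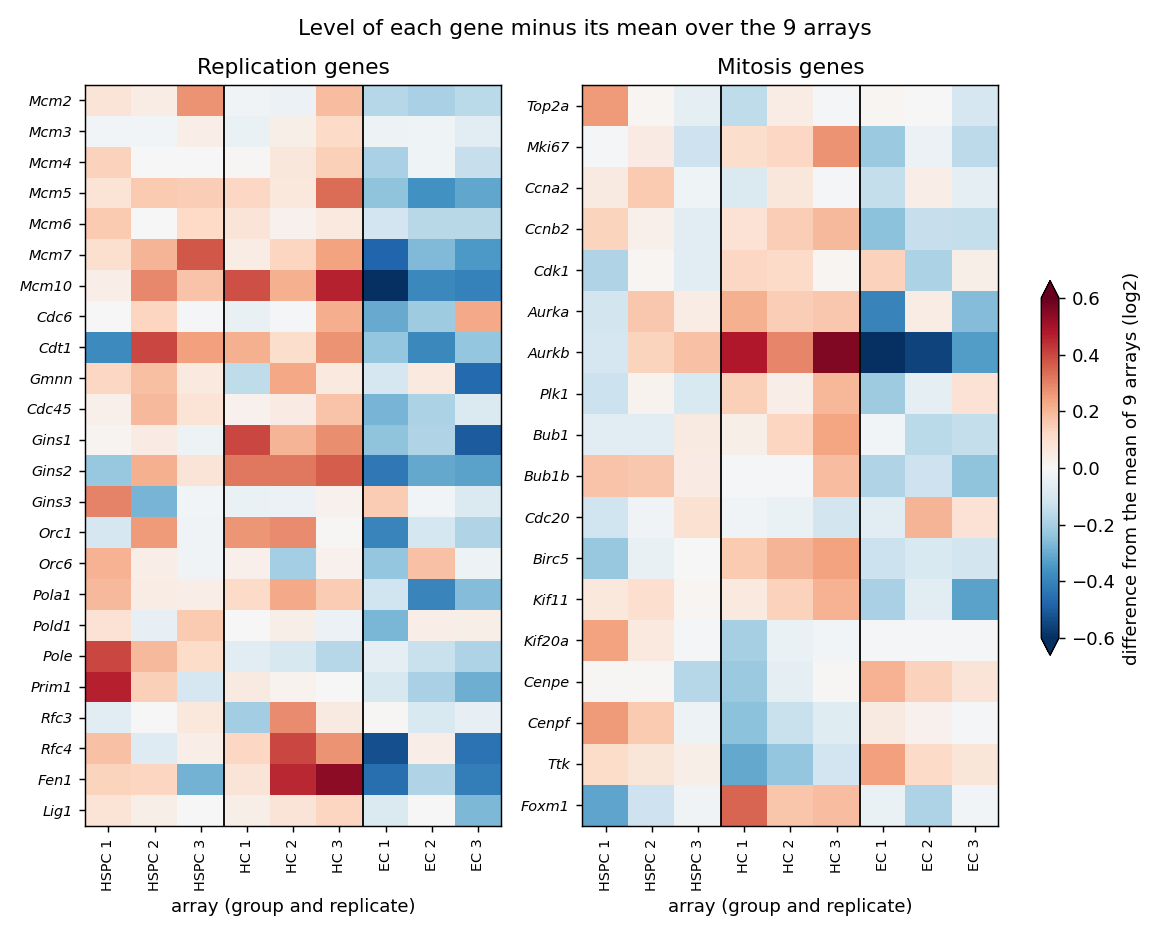
Level of each gene on each array minus its own mean over the 9 arrays (log2; red above, blue below), for replication genes (left) and mitosis genes (right). The EC columns are mostly blue for replication genes, while Ttk and Cenpf are blue in HC and Foxm1 and Birc5 are red in HC alone.

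HSPC against HC asks what differs between the CD144+ and CD144- fractions of CD45+ cells. Of 24 replication genes, 1 was higher in HSPC (4.17%, against 7.01% of all genes) and 0 lower (against 7.61% of all genes), with 1 higher and 3 lower at an unadjusted p under 0.05 (limma), where 12.5% of all genes were higher and 14.3% lower. These counts lie at or below the background. The median difference was -0.031, beside -0.033 for all genes, and repeated quantile normalization turned it to 0.026 (0.00038 for all genes), so no direction is given for the set. The called gene was Pole, which read 8.11, 7.90 and 7.82 on the HSPC arrays, 7.65, 7.61 and 7.53 on the HC arrays and 7.65, 7.57 and 7.52 on the EC arrays. Every HSPC array lay above every HC and EC array, and Pole was the one member that HSPC had past the threshold against both other groups. Foxm1, Birc5 and Ttk were past it in HC against both. The difference from HC was 0.35 ± 0.086 (SE) (adjusted p = 0.0286). It was lost without HSPC replicate 1 or any HC array (0.0563 to 0.091), after median centring (0.0505) and when only the 6 arrays compared were fitted (0.0644). Gins2 (-0.31, adjusted p = 0.0939) and Gins1 (-0.28, adjusted p = 0.0869) lay lower in HSPC with no overlap between the arrays and did not pass. Gins1 passed without EC replicate 3 and Gins2 without HSPC replicate 2, while without HSPC replicate 1 Gins2 stood at -0.19 (adjusted p 0.0413, 0.0316 and 0.202). Called differences of at least 2-fold made up 4.56% of all genes and none of the members.

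Among mitosis genes, 2 of 18 were lower in HSPC than in HC (11.1%, against 7.61% of all genes) and 1 was higher (5.56%, against 7.01%), with a median difference of -0.094. Without dim probe sets 3 were lower (16.7%, against 11.7% of the genes kept) and 1 was higher (5.56%, against 11.9%). Foxm1 read 8.25, 8.44 and 8.55 on the HSPC arrays, 8.91, 8.73 and 8.75 on the HC arrays and 8.53, 8.38 and 8.55 on the EC arrays. The HC arrays lay above all others, and the difference of HSPC from HC was -0.39 ± 0.095 (SE) (adjusted p = 0.027). Birc5 read 9.75, 9.94 and 9.98 on the HSPC arrays, 10.14, 10.19 and 10.22 on the HC arrays and 9.85, 9.89 and 9.87 on the EC arrays. Its HC arrays were again above the rest and EC and HSPC overlapped, with a difference of -0.29 ± 0.073 (SE) (adjusted p = 0.0288). Ttk ran the other way and was 0.29 ± 0.076 (SE) higher in HSPC (adjusted p = 0.0339). Aurkb lay between HC and EC in HSPC, with no overlap, at -0.37 from HC (adjusted p = 0.0616). Each of the 4 calls of this comparison held in only 6 to 9 of the 15 alternatives. Birc5 was lost without HSPC replicate 1 or any HC array (0.0548 to 0.085), and so was Foxm1 (0.051 to 0.0905). Repeated quantile normalization and fitting only the 6 arrays also ended both calls (0.127 and 0.0707 for Birc5, 0.07004 and 0.0583 for Foxm1). Ttk was lost without any HSPC array or HC replicate 1 or 2 (0.0667 to 0.107), after median centring (0.0503), with trend and robust options (0.0532) and with only the 6 arrays (0.0544). The scaling also decided the balance: repeated quantile normalization gave 2 mitosis genes higher and 0 lower in HSPC, and median centring 0 higher and 3 lower. A direction for the mitosis set between HSPC and HC is therefore not given. All 42 intervals lay inside a 2-fold change.

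**Figure D4:**
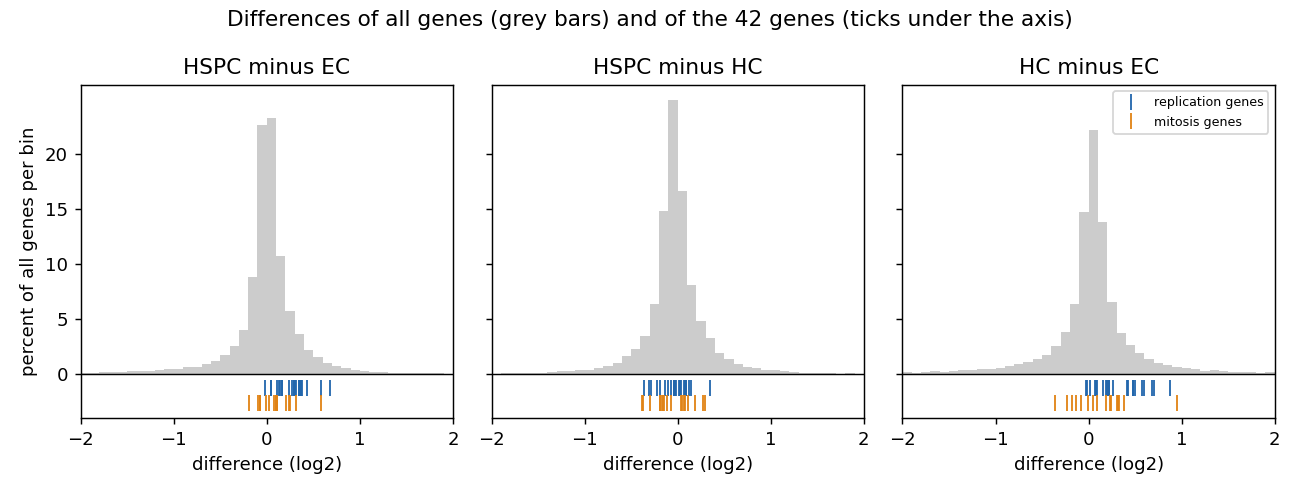
Distribution of the differences of all 20405 genes (grey bars, percent of genes per bin of 0.1 log2 units) in the 3 comparisons, with a tick under the axis for each replication gene (blue) and each mitosis gene (orange). The axis is limited to 2 log2 units either way, which leaves out 1.67%, 1.01% and 4.31% of all genes in the panels read left to right. The members lie in the middle of the distribution, with the replication genes shifted to the right against EC.

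Across the 3 comparisons, 13 replication genes and 9 mitosis genes passed the threshold at least once, and 11 and 9 passed in none. Of all genes 31.5% passed at least once. A total of 7 replication genes were called higher than EC in both HSPC and HC: Mcm5, Mcm6, Mcm7, Mcm10, Cdc45, Gins2 and Pola1. Among mitosis genes Aurkb alone was, and of all genes 6.57% were. The uncalled replication genes were Mcm3, Mcm4, Cdc6, Cdt1, Gmnn, Gins3, Orc6, Pold1, Prim1, Rfc3 and Lig1. They include the loader Cdc6, the primase subunit Prim1, the lagging-strand polymerase gene Pold1 and the ligase Lig1. The uncalled mitosis genes were Top2a, Ccna2, Cdk1, Plk1, Bub1, Cdc20, Kif20a, Cenpe and Cenpf, among them the Polo kinase Plk1, the anaphase activator Cdc20 and the cytokinesis kinesin Kif20a. Missing the threshold does not show that a gene is level. Of the 8 replication genes with an E2F form, Mcm5, Mcm6, Mcm7 and Pola1 were called higher than EC in both CD45+ groups. Orc1 was called in HC, and Mcm3, Cdt1 and Rfc3 in neither. Of the 11 with a promoter and no such whole form, Mcm10 (cut within a possible form by the window's end) and Cdc45 were called in both, Mcm2 in HSPC, Rfc4 and Fen1 in HC, and the other 6 in neither. Cdk1, the mitosis gene with an E2F form, was called in neither.

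Other genes of the same processes were read from lists taken from general knowledge of the cell cycle. These lists too were chosen with earlier results of these data known. Their shares are set against all genes. Without dim probe sets, 14.0% of the genes kept were called higher between HSPC and EC and 21.7% between HC and EC. Of 35 further replication genes, 7 were higher (20%, against 8.55% of all genes) and 0 lower (against 7.94%) in HSPC than in EC. At an unadjusted p under 0.05, 15 were higher and 0 lower (limma), where 14.2% of all genes were higher and 12.3% lower. The median difference was 0.18. The largest were the clamp loader subunits Rfc5 (0.66) and Rfc2 (0.54) and the nuclease-helicase Dna2 (0.47). The call of Dna2 was lost without HSPC replicate 1, HC replicate 3 or EC replicate 1 or 2 (0.0504 to 0.107), after median centring (0.0653) and with only the 6 arrays compared (0.0695). Between HC and EC, 12 of the 35 were higher (34.3%, against 14.8% of all genes) and 1 lower (2.86%, against 12.6%), with a median of 0.22, led by Rfc2 (0.82), Rfc5 (0.70) and Dscc1 (0.52), which helps to load the clamp. Between HSPC and HC, 2 were higher (5.71%, against 7.01% of all genes) and 1 lower (2.86%, against 7.61%), shares below the background, with a median of 0.013: Cdc7, the kinase that fires licensed origins, at 0.37, Pold2 at 0.35, and the Mcm-binding gene Mcmbp at -0.40. Pold2 was lost without HSPC replicate 1 or 3 or HC replicate 3 (0.068 to 0.0833) and with only the 6 arrays compared (0.0514).

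Of 51 further mitosis genes, 6 were higher (11.8%, against 8.55% of all genes) and 0 lower (against 7.94%) in HSPC than in EC. At an unadjusted p under 0.05, 14 were higher and 0 lower (limma), where 14.2% of all genes were higher and 12.3% lower. The median difference was 0.07. The largest were the spindle kinesin Kif15 (0.51), the kinetochore scaffold Knl1 (0.48) and the cytokinesis factor Ect2 (0.47). Knl1 was lost without HSPC replicate 2 (0.0563) and with only the 6 arrays compared (0.0523). Between HC and EC, 15 were higher (29.4%, against 14.8% of all genes) and 0 lower (against 12.6%), with a median of 0.17. At an unadjusted p under 0.05, 21 were higher and 2 lower (limma), where 20.4% of all genes were higher and 15.7% lower. The largest were Ect2 (0.67), Cdca3 (0.66) and Incenp (0.61), the scaffold of the passenger complex that also holds Aurkb and Birc5. Between HSPC and HC, 0 were higher (against 7.01% of all genes) and 1 lower (1.96%, against 7.61%). At an unadjusted p under 0.05, 3 were higher and 11 lower (limma), where 12.5% of all genes were higher and 14.3% lower. The median was -0.088, beside -0.033 for all genes. The gene called lower was Incenp (-0.34, adjusted p = 0.0496), whose call was lost without HSPC replicate 1 or 3, any HC array, or EC replicate 1 or 2 (0.065 to 0.149), after repeated quantile normalization (0.09996) and with only the 6 arrays compared (0.0673). With all arrays, none of the called genes of either list reached 2-fold in any comparison.

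Spread within the groups was of the size of many of these differences. The median SD over 3 arrays was 0.11 in HSPC, 0.092 in HC and 0.12 in EC for replication genes, and 0.10, 0.088 and 0.091 in the same order for mitosis genes. The widest gene was Cdt1 in HSPC (SD 0.41). HC replicate 3 was the highest HC array for 13 of 24 replication genes and 12 of 18 mitosis genes. EC replicate 2 was the highest EC array for 13 replication genes and 8 mitosis genes, and the HSPC arrays shared the highest place more evenly.

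Markers of other cell types differed strongly between the groups beside these small shifts. The mean level of 7 macrophage markers ranged over 8.48 to 10.17 in HSPC, 10.81 to 10.93 in HC and 4.85 to 5.41 in EC, and that of 8 granulocyte markers over 5.60 to 5.91, 9.30 to 9.78 and 4.43 to 5.27 in the same order. The 6 blood stem and progenitor markers averaged 9.33 to 9.43 in HSPC, 7.40 to 7.58 in HC and 5.97 to 6.24 in EC. At or under the background level in EC were 3 of 7 pan-leukocyte, 1 of 7 macrophage and 3 of 8 granulocyte markers. The 7 erythroid markers measured overlapped between all groups, at 6.99 to 7.41 in HSPC, 6.95 to 7.61 in HC and 6.56 to 7.81 in EC. The 6 mesenchymal and mural markers stayed between 4.82 and 5.42 on all arrays. HSPC replicate 1 had the highest endothelial mean of the HSPC arrays (9.61, against 8.21 and 8.97) and the lowest pan-leukocyte mean (9.26, against 10.23 and 9.91). Its replication mean, 8.30, lay between those of the other HSPC arrays. The part of cell mixture in the differences from EC was not tested.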

How the data were processed

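RNA of 9 sorted samples was measured on Affymetrix gene arrays, 3 samples each of HSPC, HC and EC, grouped by their labels. The deposited values are log2 expression per probe set, made by the authors with RMA in Partek per the submitters' processing notes. The labels' protocols name 2 array designs without saying which sample was run on which, and versions of the tools were not given in the sources used here. The values were used as deposited. The number of arrays, 3 per group, limits the precision.

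Of 21115 probe sets, 20405 had 1 gene symbol in the platform annotation and were tested, and 710 had none. Array medians lay between 5.41 and 5.51. Pcna and Ccnb1 of the list, and Kifc1 and Lin52 of the further lists, matched no named probe set and are not analysed here. limma 3.58.1 in R 4.3.3 fitted all 9 arrays with 1 mean per group (6 residual and 2.75 prior degrees of freedom). Every adjusted p in the text is limma's moderated test with Benjamini-Hochberg adjustment over all 20405 genes, and "called" means an adjusted p under 0.05. The steps were tested on simulated data. A permutation test of 3 arrays against 3 cannot go below 0.1. The background level, 4.64, was set at the 95th percentile of the group of 1289 odorant (Olfr) and pheromone (Vmn) receptor genes, whose median was 3.19, and no group mean of a member lay at or under it. The members and the gene lists were chosen with earlier results of these data known. Every called member is named, except where over 10 were called in a set and direction, and then the 8 largest are named with their statistics. Promoters are RefSeq sequences (GRCm38.p6), searched for exact motif matches on both strands.

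The alternatives were leaving out each array, the replicate number as a block, repeated quantile normalization, median centring, limma's trend and robust options, only the 6 arrays compared, and leaving out dim probe sets. Whether the replicate numbers pair the samples could not be decided. The correlation of deviations from the group means was -0.042 to 0.145 over 9 same-numbered pairs and -0.143 to 0.147 over 18 other pairs. These ranges overlap, and the pairs share arrays and are not independent, so the correlations neither show nor exclude a pairing.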

Additional observations from a re-analysis of the deposited data

How the results depend on the processing

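Counts of called members moved with the scaling and with single arrays, and no called difference of a named gene reversed under the alternatives run. Between HSPC and EC, 9 replication genes were called higher, against 3 after median centring and 3 with only the 6 arrays compared. The 9 were 37.5% of the set, beside 8.55% of all genes. The 3 were 12.5%, beside 6.89% of all genes after median centring and 6.99% with the 6 arrays. For mitosis genes the 2 became 1 after median centring and 3 after repeated quantile normalization. These were 5.56% and 16.7% of the set, beside 6.89% and 8.15% of all genes. Between HSPC and HC, the 1 replication gene became 0 after median centring and with only the 6 arrays. The 1 mitosis gene called higher became 2 after repeated quantile normalization and 0 after median centring, with trend and robust options and with only the 6 arrays. The 2 called lower became 0 after repeated quantile normalization and with only the 6 arrays, and 3 after median centring and without dim probe sets. The shares of all genes called higher between HSPC and HC were 8.11% after repeated quantile normalization and 6.29% after median centring. They were 6.74% with trend and robust options and 5.41% with only the 6 arrays. Called lower were 7.28% after repeated quantile normalization, 6.03% with the 6 arrays, 8.32% after median centring and 11.7% without dim probe sets. Between HC and EC, repeated quantile normalization gave 4 mitosis genes higher and 2 lower, where the deposited values gave 7 and 1. The shares of all genes were 13.4% higher and 14.1% lower there, where the deposited values gave 14.8% and 12.6%. Fitting 6 arrays leaves fewer samples for the spread. Between HC and EC it gave 12 replication genes higher, where all 9 arrays gave 11. The shares of all genes were 14.3% and 14.8% in the same order. The causes of these changes were not tested.

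With the replicate number as a block, mitosis genes called higher numbered 1 between HSPC and EC and 0 between HSPC and HC. The labels do not give this number as a pairing. The replication counts in these comparisons stayed at 9 and 1. The shares of all genes called higher there were 8.09% and 6.65%. The block ended the calls of Bub1b and Dna2 between HSPC and EC (adjusted p 0.0597 and 0.0657), of Ttk, Foxm1, Pold2 and Incenp between HSPC and HC (0.0719, 0.0507, 0.0524 and 0.0568) and of Mcm6 and Foxm1 between HC and EC (0.0601 and 0.0641). Leaving out 1 array at a time gave, between HSPC and EC, 4 to 8 replication and 1 to 4 mitosis genes higher. Between HSPC and HC it gave 0 to 1 replication genes higher and 0 to 1 lower, and 0 to 1 mitosis genes higher and 0 to 2 lower. Between HC and EC it gave 7 to 12 replication and 4 to 7 mitosis genes higher. Over all alternatives, 4 of 11 calls between HSPC and EC, 0 of 4 between HSPC and HC and 12 of 19 between HC and EC held in all 15. Over 151 differences, those of all 42 members and of the further genes named, the alternatives gave 2265 values, of which 2082 stayed on their side of the threshold, 162 lost the call (24 differences) and 21 gained one (13 differences).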

Other observations

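A list of 17 measured genes held E2F factors, their Tfdp partners, the pocket proteins that restrain E2F, and Lin9, Lin37, Lin54 and Mybl2. Of these, 3 were higher (17.6%, against 8.55% of all genes) and 0 lower (against 7.94%) in HSPC than in EC. At an unadjusted p under 0.05, 8 were higher and 1 lower (limma), where 14.2% of all genes were higher and 12.3% lower. The median difference of the list was 0.23. Rbl2, which encodes the pocket protein p130, was 0.80 ± 0.19 (SE) higher (adjusted p = 0.0199), a call lost without EC replicate 1 or 2 (0.0737 and 0.0501) and with only the 6 arrays compared (0.0654). E2f8, an atypical repressor of the E2F family, was 0.67 higher (adjusted p = 0.000626) and Tfdp1, the E2F partner, 0.30 (adjusted p = 0.0211). Tfdp1 was lost without HSPC replicate 1 or 2 or any EC array (0.0564 to 0.0624) and after median centring (0.0602). Between HC and EC, 7 were higher (41.2%, against 14.8% of all genes) and 5 lower (29.4%, against 12.6%), with a median of 0.092. Rbl2 was 1.40 higher, the pocket protein gene Rbl1 1.08 and E2f8 1.06, and each of these passed a 2-fold difference. Between HSPC and HC, 4 were higher (23.5%, against 7.01% of all genes) and 2 lower (11.8%, against 7.61%), with a median of -0.021. E2f6, a repressor of the family, was 0.94 higher in HSPC and Tfdp2 0.78, while Rb1, the retinoblastoma gene, was -0.91.

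Split by promoter letters, the replication genes gave these medians. The 8 with an E2F form had 0.31 between HSPC and EC and 0.42 between HC and EC, beside 0.29 and 0.22 for the 11 without. Mcm10, whose sequence ends within a possible form, is counted among the 11. Between HSPC and HC the medians were -0.044 and 0.017. These values carry no test.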
